A study of Mus musculus with 6 samples.

Results

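Tumor cells that carried neither leukocyte transcripts nor the keratins of the carcinoma were described in the 2 tumor libraries of a mouse single-cell RNA study. Barcodes with at least 300 genes, at least 2000 UMIs (unique molecular identifiers, each standing for 1 captured transcript) and at most 10% mitochondrial UMIs were kept, 8846 cells in all. A cell belonged to the set where it held 0 UMIs of Ptprc, which encodes CD45, of Tyrobp and Fcer1g, adaptors of leukocyte receptors, and of Krt8 and Krt18, keratins of simple epithelia. There were 362 such cells, 103 in the Cysltr1 KO library and 259 in the WT library. Of these, 68 held 5 or more UMIs of Col3a1 and Dcn together and are called fibroblast-like by the rule, 7 held 2 or more UMIs of Pecam1 and Cdh5 together and are called endothelial by the rule, and 287 met neither limit. No cell met both limits. The carcinoma cells they were set against held 3 or more UMIs of Krt8 and Krt18 and none of the leukocyte genes, 793 cells in the Cysltr1 KO library and 1389 in the WT library.

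The hosts were Cysltr1 KO mice, deficient in the receptor for cysteinyl leukotrienes that Cysltr1 encodes, and BALB/c WT mice. Both groups bore EMT6 tumors, grown from a BALB/c mammary carcinoma line, so the carcinoma cells of both libraries come from 1 line. Each library was 1 pool of 3 mice, and tumor cells were enriched for CD45 with magnetic beads before capture. The labels give neither the Cysltr1 allele nor the age of the mice. With 1 library for each genotype no difference between genotypes has a replicate check, so no test was made, and every interval given is an exact 95% interval that covers counting error only.

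Tumor fibroblasts build the collagen matrix and are recognised by collagens I and III, the small proteoglycans decorin and lumican, fibulins, collagen VI and the receptor Pdgfra. Endothelial cells line vessels and carry the junction proteins encoded by Pecam1 and Cdh5, the VEGF receptors Kdr and Flt1, and, in fenestrated capillaries, Plvap. EMT6 cells themselves have mesenchymal traits, so that collagen alone does not separate a host fibroblast from a tumor cell. Malat1 and Neat1 are long noncoding RNAs kept in the nucleus, and a high share of them in a barcode goes with a high nuclear fraction of its RNA. Xist is transcribed from the inactive X chromosome of female cells.

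The set made up 2.89% [2.37 to 3.50] of the kept cells in the Cysltr1 KO library and 4.90% [4.34 to 5.52] in the WT library. Fibroblast-like cells were 0.505% [0.300 to 0.797] in the Cysltr1 KO library and 0.946% [0.703 to 1.25] in the WT library. The cells that met neither limit, called remaining cells from here on, were 2.36% [1.88 to 2.91] in the Cysltr1 KO library and 3.84% [3.34 to 4.40] in the WT library. With a minimum of 4000 UMIs the remaining share was 0.959% in the Cysltr1 KO library and 1.10% in the WT library. These shares are of a CD45-enriched suspension, which sets how many CD45-negative cells were left: cells with a UMI of Ptprc, Tyrobp or Fcer1g were 70.3% of the kept cells in the Cysltr1 KO library and 62.1% in the WT library. The part of the enrichment in the lower shares of the Cysltr1 KO library was not tested.

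The 2 libraries held 6874 barcodes and 54569639 UMIs for Cysltr1 KO tumors and 9740 barcodes and 73393630 UMIs for WT tumors, and 88 barcode sequences occurred in both, among them those of 1 member in each library. The kept cells had a median of 9539 UMIs in the Cysltr1 KO library and 9403 in the WT library. The members were shallower, with medians of 3492 and 2988 UMIs, against 23209 and 18972 UMIs in the carcinoma cells of the same libraries. Doublet scores marked 2 of the 362 members, both among the remaining cells. Cysltr1 itself (ENSMUSG00000052821, mm10 chrX:106574346-106603679, minus strand) had 0 UMIs in Cysltr1 KO fibroblast-like cells against 1 in WT ones, and 2 UMIs in Cysltr1 KO remaining cells against 1 in WT ones. Leukocytes of the same tumors (cells with a Ptprc UMI and no Krt8 or Krt18) held 185 Cysltr1 UMIs, 26.9 CPM, in the Cysltr1 KO library against 327 UMIs, 50.3 CPM, in the WT library, where CPM are the UMIs of a gene per 1000000 UMIs of the summed cells. The deleted part of the gene is not given in the labels, so these transcripts do not check the genotype, and the members held too few to say anything of it.

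Exactly 5 UMIs of Col3a1 and Dcn were held by 1 Cysltr1 KO and 9 WT cells, just inside the limit, and exactly 4 by 3 Cysltr1 KO and 5 WT cells, just outside it. A limit of 10 would keep 9 Cysltr1 KO and 24 WT cells of the 68. Exactly 1 UMI of Pecam1 and Cdh5 was held by 3 Cysltr1 KO and 7 WT cells outside that limit, and the lowest values inside it were 2 UMIs in the only Cysltr1 KO cell and 6 in the WT cells. The marker genes lie at mm10 chr1:45311538-45349706 on the plus strand (Col3a1, ENSMUSG00000026043), chr10:97479609-97518143 on the plus strand (Dcn, ENSMUSG00000019929), chr11:106654217-106750628 on the minus strand (Pecam1, ENSMUSG00000020717) and chr8:104101625-104144511 on the plus strand (Cdh5, ENSMUSG00000031871).

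The 68 fibroblast-like cells were of 2 kinds when read by genes the rule did not use. Lum (lumican), Fbln1 (fibulin), Col6a3 (collagen VI) and Mfap5 (a microfibril protein) together had 5 or more UMIs in 1 of 18 Cysltr1 KO cells and 7 of 50 WT cells, with 7 to 63 UMIs each. The other 60 cells held at most 2 UMIs of these 4 genes, and 16 of 17 in the Cysltr1 KO library and 39 of 43 in the WT library held none. This limit was chosen after the values were seen. The 8 cells above it are called panel cells here. Since they were chosen by these 4 markers, the markers do not check the label in them. In the other 60 cells Lum and Col6a3 were at 0 in both libraries, while Pdgfra was above carcinoma cells, as given further on. The fibroblast markers as a sum were above them too. That sum includes Col3a1 and Dcn, by which the cells were chosen, so it does not check the label. The label was thus met in part, by Pdgfra and not by Lum or Col6a3. At equal depth Pdgfra was also found in a larger share of remaining cells than of carcinoma cells, so it is not a trait of the 60 cells alone. Xist had 0 UMIs in the 17 Cysltr1 KO cells of these 60 and 14 UMIs in 4 of the 43 WT cells. After thinning to equal depth, 0% [0 to 19.5] and 6.98% [1.46 to 19.1] of these cells held a Xist UMI. The shares were 0.883% and 1.58% in carcinoma cells and 40.0% and 44.2% in leukocytes, in the same order of libraries. Whether the 60 cells came from the host was not tested.

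**Figure D1:**
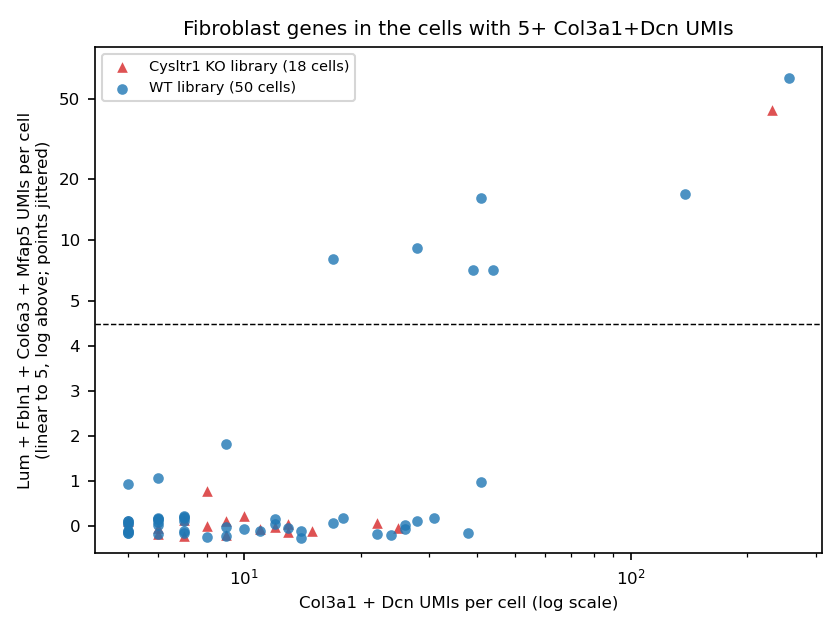
UMIs of Col3a1 and Dcn (x axis, log scale) against UMIs of Lum, Fbln1, Col6a3 and Mfap5 (y axis, linear to 5 and log above, points jittered) in each fibroblast-like cell of the Cysltr1 KO and WT libraries. The dashed line separates the 1 Cysltr1 KO and 7 WT panel cells from the 60 other cells, which hold at most 2 UMIs of the 4 genes.

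The Cysltr1 KO panel cell had 8494 UMIs, among them 140 of Col3a1, 92 of Dcn, 140 of Col1a1, 122 of Col1a2, 24 of Mfap5, 10 of Fbln1 and 9 of Lum. It also held 54 UMIs of Pi16, which marks adventitial progenitor fibroblasts of many tissues, and 47 of Bgn, the proteoglycan biglycan. Acta2, the smooth muscle actin of myofibroblasts, was at 0. A single cell thus stands for the panel cells of the Cysltr1 KO library, and whether it came from the host was not tested.

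The 7 WT panel cells had 2112 to 13329 UMIs, with a median of 2834. They held 15 to 249 UMIs of Col3a1, 21 to 320 of Col1a1 and 1 to 34 of Col6a3 each. Postn, which encodes the matrix protein periostin of activated fibroblasts, was found in all 7, with 1 to 71 UMIs. Pi16 had at most 3 UMIs in any of them and Acta2 at most 4. Col3a1 and Col6a3 were among the genes by which the cells were chosen, and Col1a1 and Postn, which were not, were found in all 7. Pi16 was high in the Cysltr1 KO cell only among these 8 cells. Malat1 and Neat1 made up 12.7% and 16.4% of the UMIs in 2 of the WT cells. Xist UMIs were present in 6 of the 7 WT cells and absent in the Cysltr1 KO cell.

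Summed over 10 fibroblast markers, panel cells held 64281 [59001 to 69906] CPM in the Cysltr1 KO library and 47864 [45659 to 50148] CPM in the WT library. The other fibroblast-like cells held 6645 [6217 to 7094] CPM in the Cysltr1 KO library and 6539 [6244 to 6846] CPM in the WT library. Carcinoma cells had 1703 and 1729 CPM, and leukocytes 176 and 371 CPM, in the same order of libraries. The 60 other cells thus lay between panel cells and carcinoma cells in both libraries. For the panel cells the order is partly the choice made with 4 of the 10 markers, and for all 68 cells partly the choice made with Col3a1 and Dcn.

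Fn1, Col12a1 and Pdgfra were higher in the 60 other cells than in carcinoma cells of both libraries. Fn1, which encodes fibronectin, had 5379 [4995 to 5785] CPM in the Cysltr1 KO library against 881 CPM in its carcinoma cells, and 3213 [3006 to 3429] CPM in the WT library against 876 CPM. Col12a1, a fibril-associated collagen, had 1872 CPM against 238 CPM in the Cysltr1 KO library and 1553 CPM against 252 CPM in the WT library. Pdgfra, the receptor that marks fibroblasts, had 237 [162 to 334] CPM against 29.9 CPM in the Cysltr1 KO library and 200 [151 to 259] CPM against 24.6 CPM in the WT library. These differences were not confined to the 60 cells. Fn1 and Col12a1 were also called higher in remaining cells than in carcinoma cells, at 1.5-fold in both libraries. After thinning to equal depth, 13.3% and 16% of Cysltr1 KO and WT remaining cells without Cd3 transcripts held a Pdgfra UMI. The share was 6.05% and 5.98% in carcinoma cells, and 23.5% and 37.2% in the 60 cells. In single libraries, an added comparison, 749 of 3269 genes (22.9%) were higher and 300 (9.18%) lower in the 17 Cysltr1 KO cells, and 678 of 3192 (21.2%) were higher and 253 (7.93%) lower in the 43 WT cells. Malat1 and Neat1 had medians of 3.36% and 3.10% of a cell's UMIs in the 60 cells of the Cysltr1 KO and WT libraries, against 0.188% and 0.220% in carcinoma cells.

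Among carcinoma cells themselves, 31.8% [28.5 to 35.1] in the Cysltr1 KO library and 26.6% [24.3 to 29.0] in the WT library met the Col3a1 and Dcn limit. The 4-gene panel reached 5 UMIs in 7 carcinoma cells (0.883%) of the Cysltr1 KO library and 5 (0.360%) of the WT library. Meeting the Col3a1 and Dcn limit was therefore common in keratin-positive cells and meeting the panel limit was rare there. Both limits are UMI counts, and the carcinoma cells were deeper, with medians of 23209 and 18972 UMIs. The shares at equal depth were not measured. The 60 other cells had medians of 5828 UMIs and 6.35% mitochondrial UMIs in the Cysltr1 KO library and of 5284 UMIs and 6.85% in the WT library, against 1.14% and 1.49% mitochondrial UMIs in carcinoma cells. Mural markers summed to 66.6 and 85.5 CPM in the 60 cells, against 19.5 and 19.3 CPM in carcinoma cells, with 6 of 8 of them (Rgs5, Kcnj8, Abcc9, Notch3, Mcam and Higd1b) at 0 in both libraries. Macrophage markers summed to 133 and 182 CPM, against 56.2 and 74.7 CPM in carcinoma cells. The part of depth, mitochondrial share and these other markers in the profile was not tested.

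**Figure D2:**
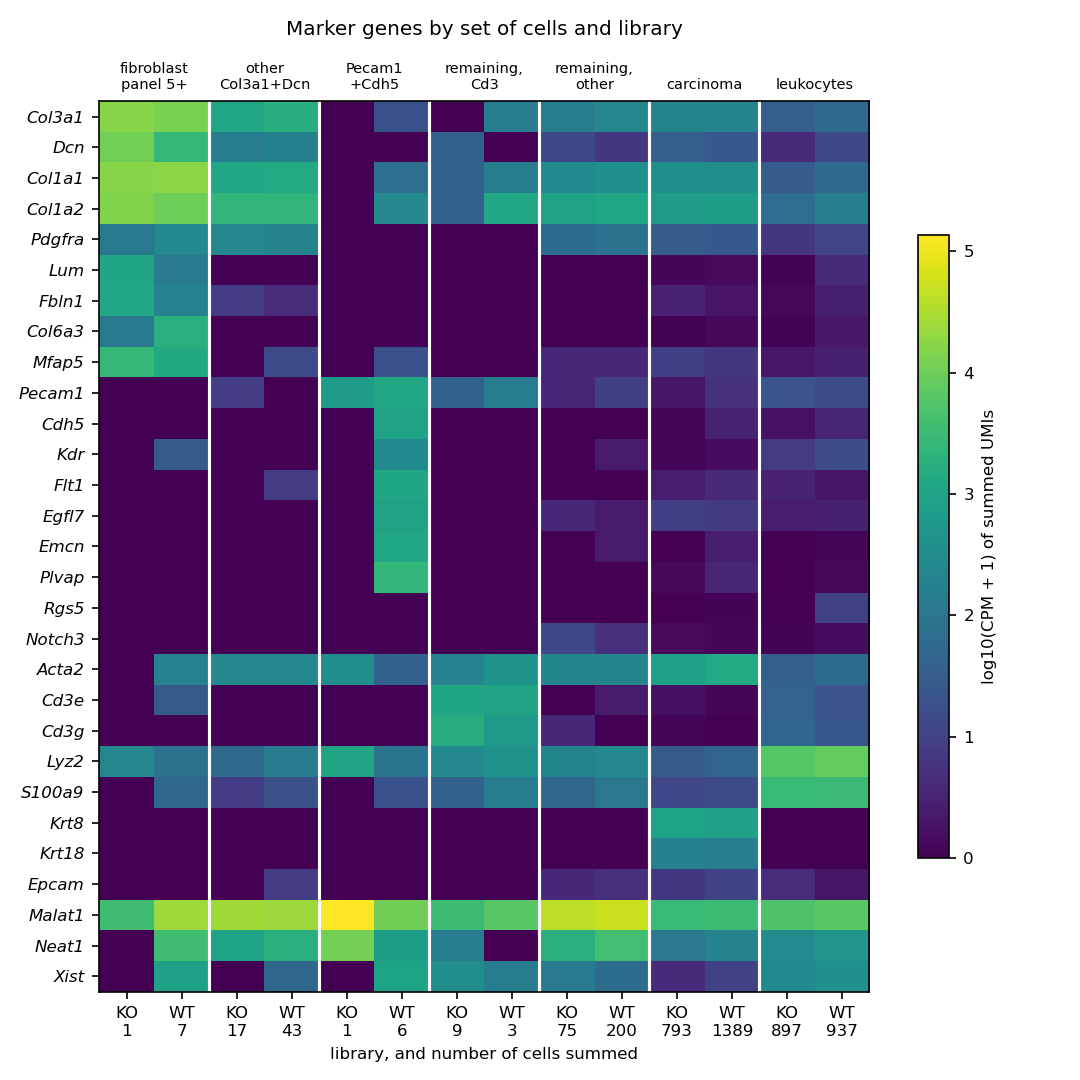
Summed level of each marker gene (rows, log10 of CPM plus 1, colour) in each set of cells of the Cysltr1 KO and WT libraries (columns, with the number of cells). Lum and Col6a3 show in the panel cells and are at 0 in the other cells with Col3a1 and Dcn, and the vessel genes show in the WT column of the cells with Pecam1 and Cdh5 but, apart from Pecam1, not in its Cysltr1 KO column, which is 1 cell.

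All fibroblast-like cells together were set against carcinoma cells in each library, on CPM of summed UMIs, and a gene was called where it was at least 2-fold apart in the same direction in both libraries with Poisson intervals that did not overlap in either. A gene entered if the compared sums held 100 UMIs or more of it, if its mean reached 50 CPM and if its level was not below 20% of that in the highest class of tumor cells. Of 3355 genes, 587 (17.5%) were higher and 133 (3.96%) lower in fibroblast-like cells. The split depended on the scaling: with median-of-ratios factors 279 genes were higher and 579 lower, and the median log2 ratio of the same genes moved to −0.37, against 0.07 on CPM. Since the cells were chosen by transcripts, these counts are a description. Col3a1 and Dcn, and the collagens that go with them, were partly set by the rule.

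The 10 highest ratios rested largely on the panel cells. Bgn (biglycan) had 327 CPM in fibroblast-like cells against 2.28 CPM in carcinoma cells of the Cysltr1 KO library, and 378 CPM against 2.95 CPM in the WT library. Fstl1 (a secreted follistatin-like protein) had 132 CPM against 0.271 CPM in the Cysltr1 KO library and 258 CPM against 0.821 CPM in the WT library. Col5a2, a fibril-forming collagen, Fbn1, which encodes the microfibril protein fibrillin, Serpinf1, Cxcl14, Gpx3, Postn, Mfap5 and Rarres2 completed the list, with mean log2 ratios from 4.43 (Mfap5) to 7.14 (Rarres2). Rarres2, which encodes the chemoattractant chemerin, rested on 6 and 191 UMIs, and 99.5% of those in the WT library came from 1 cell. When panel cells were left out, an alternative added after the data were seen, 8 of the 10 log2 ratios changed sign. Those of Fstl1 and Fbn1 were 0.489 and 0.985. Mfap5 was among the 8 and is also among the 4 genes that define panel cells, so its change was largely set by that choice.

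Several genes of dividing cells were among those with the lowest ratios. Ube2c, a ubiquitin ligase partner of mitosis, had 0 and 22.03 CPM in fibroblast-like cells of the Cysltr1 KO and WT libraries, against 227 and 274 CPM in carcinoma cells. H2afz, a histone variant, had 90.5 and 129 CPM against 753 and 765 CPM. Adm, the hypoxia-induced peptide adrenomedullin, had 34.8 and 18.9 CPM against 191 and 131 CPM. Pttg1, Dtymk, Stmn1, Shmt2, Cdk1, Selenoh and Psat1 were also lower, with mean log2 ratios from −4.39 (Pttg1) to −2.29 (Psat1).

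Gene lists were counted at 1.5-fold, a limit passed by 23.5% of the 3355 genes upwards and 12.8% downwards. A list gene that is low in carcinoma cells could pass the filter only through the fibroblast-like cells and then had to be higher, so the counts upwards describe the genes and support nothing. All 12 measured collagens of a list of 18 were higher, among them Col3a1, by which the cells were chosen, with a median log2 ratio of 2.16, and without panel cells the median was 1.90. Of the measured fibroblast markers, 10 of 11 were higher, with a median of 2.10, or 1.62 without panel cells. In all, 14 of 20 matrix crosslinking and remodelling genes were higher, among them Fn1 and the collagen-modifying or crosslinking enzymes Plod2, P4ha1 and Lox, and none was lower. Among TGF-beta pathway genes 7 of 11 were higher, among them the receptors Tgfbr2 and Tgfbr3.

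Other lists leaned the opposite way or were split. Of 20 measured cell cycle genes none was higher and 11 were lower, with a median log2 ratio of −1.39. Of 24 hypoxia and glycolysis genes 2 were higher (Hk2 and P4ha1) and 10 lower, among them Ldha with 808 and 714 CPM against 1865 and 1603 CPM. Of 17 oxidative stress and glutathione genes 7 were lower and none higher. Of 10 myofibroblast genes 3 were higher (Postn, Inhba and Thbs2) and 3 lower (Myl9, Cnn2 and Acta2). Of 12 genes of the MHC class I list, which also holds genes of peptide processing, none was higher and 2 were lower. Those 2, Psme1 and Psme2, encode proteasome activator subunits and not class I molecules.

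The 7 WT panel cells could be set against WT carcinoma cells alone, again a comparison added after the data were seen. Of 2767 genes, 293 (10.6%) were higher and 360 (13%) lower. Sparc, a matrix glycoprotein, had 496 UMIs and 13420 CPM in the panel cells against 906 CPM in carcinoma cells, with UMIs in 7 of 7 cells. Timp1, an inhibitor of matrix metalloproteinases, had 335 UMIs and 9064 CPM against 356 CPM, in 6 of 7 cells. Il33, an alarmin of stromal cells, had 44 UMIs, all in 3 of the cells. At 1.5-fold, passed by 11% of the genes upwards and 14.7% downwards, 6 of 7 measured collagens and 12 of 14 matrix genes were higher. In turn, 7 of 17 cell cycle genes and 6 of 11 genes of the MHC class I list were lower with none higher. Those of the latter list were B2m, H2-K1, H2-D1, H2-Q4 and the proteasome activator genes Psme1 and Psme2. List genes low in carcinoma cells, such as Col4a1 and Loxl2 with 5.67 and 31.6 CPM there, passed the filter only through the panel cells. The cells were also chosen with the collagen genes Col3a1 and Col6a3. The counts upwards therefore describe the genes and support nothing. S100a4, Ube2c and Phgdh had 0 UMIs in the 7 cells, against 577, 274 and 227 CPM in WT carcinoma cells.

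The label endothelial held for the 6 WT cells and not for the Cysltr1 KO cell. The 6 WT cells had 2927 to 17306 UMIs, and their Pecam1 and Cdh5 UMIs were 26, 12, 6, 39, 16 and 10. All 11 endothelial markers had UMIs in them, together 517 UMIs or 9824 [8996 to 10709] CPM, against 23.5 CPM in WT carcinoma cells. Of the 517 UMIs, 61 were of Pecam1 and 48 of Cdh5, by which the cells were chosen, and the other 9 markers held the rest. The Cysltr1 KO cell had 3064 UMIs, 2 of Pecam1 and none of the other 10 markers, and 14.9% of its UMIs were Malat1 and Neat1. No comparison of genotypes was therefore made for endothelial cells. The 6 WT cells were 0.114% [0.0417 to 0.247] of the kept cells of their library, and the 1 Cysltr1 KO cell that met the limit was 0.0281% of those of its library.

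Vessel genes outside the rule were high in the 6 WT cells. Gpihbp1, which anchors lipoprotein lipase on the capillary wall, had 191 UMIs and 3629 [3133 to 4182] CPM, in 5 of 6 cells with up to 108 UMIs in 1 cell. Plvap, the diaphragm protein of fenestrated capillaries, had 133 UMIs in 4 of 6 cells. Emcn (endomucin), Flt1 (a VEGF receptor) and Egfl7 (a secreted vessel protein) had 61, 58 and 48 UMIs, each in 6 of 6 cells. Ctla2a had 366 UMIs, Igfbp3, a binding protein of insulin-like growth factors, 393, and the basement membrane collagens Col4a1 and Col4a2 206 and 107, each in 6 of 6 cells. Fabp4 and Mest followed with 79 and 70 UMIs. WT carcinoma cells had 1.64 CPM (Emcn) to 10.6 CPM (Igfbp3) of these genes, so that each stood far above its level in the carcinoma.

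Several markers of other vessel types were at 0. Vwf and Ackr1, genes of veins and venules, Prox1 and Lyve1 of lymphatic vessels, and Rgs5, Pdgfrb, Notch3, Cspg4 and Higd1b of pericytes all had 0 UMIs in the 6 cells, which allows up to 57.0 CPM of each (3 counts). Of the 8 mural markers, Mcam, Abcc9 and Kcnj8 did have UMIs there, together 47 UMIs or 893 CPM, against 19.3 CPM in carcinoma cells. Esm1 and Apln, genes of sprouting tip cells, had UMIs in 3 and 2 of the 6 cells. Selp of venules and Gja4 of arteries had 1 UMI each, and Hey1 of arteries and Flt4 and Pdpn of lymphatic vessels 2 each. Xist had 51 UMIs, with at least 1 in each of the 6 cells, against 8.92 CPM in WT carcinoma cells and 969 CPM in the endothelial cells. All keratins and Epcam were at 0.

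Against WT carcinoma cells, 559 of 3045 genes (18.4%) were higher and 348 (11.4%) lower in the 6 WT cells, a comparison within 1 library that was added after the data were seen. At 1.5-fold, passed by 19.7% of the genes upwards and 13.9% downwards, 2 of 3 measured capillary genes were higher (Gpihbp1 and Fabp4), as were Efnb2 of arteries, the only measured gene of its list, and Ephb4 of veins, while Vcam1 of the same list was lower. The 7 measured pan-endothelial genes were higher too, but genes so low in carcinoma cells passed the filter only through the endothelial cells, which fixed their direction. Of the genes of Notch, VEGF and angiopoietin signalling 5 of 7 were higher, namely Nrp2, Notch1, Jag1, Flt1 and Nrp1. Notch1 rested on 7 UMIs, 133 [53.5 to 274] CPM against 9.33 CPM. Flt1 and Notch1, and Gpihbp1 and Fabp4 of the capillary list, were also so low in carcinoma cells that only the endothelial cells let them pass the filter. The counts upwards of the capillary and signalling lists therefore describe the genes and support nothing. Of 11 genes of the MHC class I list none was higher and 6 were lower (B2m, H2-K1, H2-Q4 and the processing genes Tapbp, Psme1 and Psme2). Of 23 hypoxia and glycolysis genes 1 was higher and 12 lower, and 9 of 16 oxidative stress genes were lower. Cks2, Tkt, Csf1 and Sox9 had 0 UMIs in the 6 cells, against 355, 273, 232 and 188 CPM in carcinoma cells. With the Cysltr1 KO cell included as the rule has it, 47 of 3077 genes (1.53%) were higher and 32 (1.04%) lower in both libraries. The highest ratios in that pair of comparisons were those of Cd1d1, Cemip2, Ikzf5, Rora, Neat1, Atg16l2, Arhgap18, Rab10os, Bcr and Mast4, with 1 to 35 UMIs in the Cysltr1 KO cell, and none of them is an endothelial marker. At 1.5-fold, passed by 1.69% of the genes upwards and 1.92% downwards, none of the 7 measured pan-endothelial genes was called in both libraries. The lowest were those of Tubb5, Ldha, Pgam1, Prdx1, Naca, Aldoa, H2-K1, Cox4i1, Nme2 and Lgals1, of which all but Lgals1 had 0 UMIs in the Cysltr1 KO cell.

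The remaining 287 cells had a low median depth and a high median share of nuclear RNA. Their median depth was 2946.5 UMIs in the Cysltr1 KO library and 2802 UMIs in the WT library, against 23209 and 18972 UMIs in carcinoma cells. Malat1 and Neat1 made up a median of 3.90% of a cell's UMIs in the Cysltr1 KO library and 6.33% in the WT library, with maxima of 22.8% and 22.2%, against medians of 0.188% and 0.220% in carcinoma cells. Mitochondrial UMIs had medians of 2.15% and 2.56%, against 1.14% and 1.49% in carcinoma cells. The 10 fibroblast markers summed to 1868 and 2427 CPM, against 1703 and 1729 CPM in carcinoma cells, with Lum, Fbln1 and Col6a3 at 0 in both libraries.

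**Figure D3:**
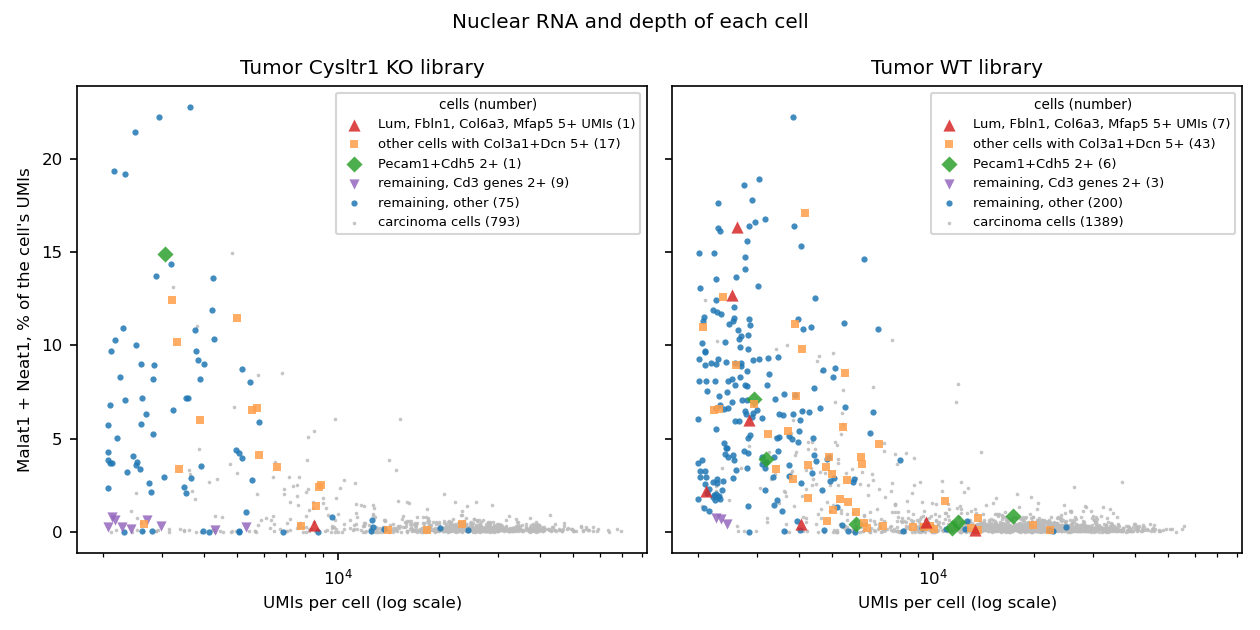
UMIs of each cell (x axis, log scale) against the percentage of its UMIs from Malat1 and Neat1 (y axis), with the Cysltr1 KO library left and the WT library right and numbers of cells in the legend. Most remaining cells lie below 5000 UMIs and many reach above 5%, while carcinoma cells are mostly above 10000 UMIs and close to 0%.

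Among cells with 2000 to 3000 UMIs, Malat1 and Neat1 had a median of 5.77% in 36 Cysltr1 KO remaining cells without Cd3 transcripts against 0.0972% in 12 carcinoma cells, and 7.55% in 116 WT remaining cells against 2.21% in 13 carcinoma cells. With 5000 to 10000 UMIs the medians were 1.93% in 12 Cysltr1 KO remaining cells against 0.506% in carcinoma cells, and 3.37% in 18 WT remaining cells against 0.383%. With 10000 to 20000 UMIs they were 0.222% in 4 Cysltr1 KO remaining cells against 0.222%, and 0.192% in 3 WT remaining cells against 0.228%. The remaining cells were thus higher in nuclear RNA up to 10000 UMIs and not in the few deeper ones. When every carcinoma cell was thinned to 2000 UMIs, 20.6% [17.8 to 23.5] in the Cysltr1 KO library and 21.7% [19.5 to 23.9] in the WT library had no Krt8 or Krt18 UMI left. Krt7 had 3 UMIs in each library, and Epcam 1 UMI in the Cysltr1 KO library and 3 in the WT library, but both were also rare in carcinoma cells at this depth. After thinning, Krt7 had a UMI in 2.67% of Cysltr1 KO and 0.5% of WT remaining cells without Cd3 transcripts, against 1.26% and 0.792% of carcinoma cells. For Epcam the shares were 1.33% and 1%, against 1.51% and 1.51%. The 9 epithelial markers summed to 11.9 and 13.7 CPM in remaining cells without Cd3 transcripts, against 1134 and 1059 CPM in carcinoma cells. Krt8 and Krt18, which are 2 of the 9 markers, are at 0 in the remaining cells by the rule, so the sums do not show how the other markers compare.

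Clustering of members and carcinoma cells, with the genes of the rule left out, placed 275 of the 287 remaining cells (95.8%) in clusters of which at least 10% were carcinoma cells. With the genes of the rule kept, that share was 94.4%. The cluster with most remaining cells held 84.0% of them without those genes and 54.0% with them, so the extent of cluster 6 depended on this choice. Cluster 6 held 59 of 84 remaining cells of the Cysltr1 KO library (70.2% [59.3 to 79.7]) and 182 of 203 of the WT library (89.7% [84.6 to 93.5]), together with 161 carcinoma cells. Its leading genes were Gm26917, Neat1, Malat1, Mir100hg and Kcnq1ot1, its median depth was 3772.5 UMIs and its median mitochondrial share 5.54%, so it was given no cell type. It also held 43 of the 60 fibroblast-like cells outside the panel and the Cysltr1 KO cell with Pecam1. Another 11 of those 60 fell in cluster 1, whose leading genes were Mgp, Cebpd and Il11 and which was 95.3% carcinoma cells. Panel cells formed cluster 10, with 7 of the 8, and 1 WT panel cell fell in cluster 0, of which 98.6% were carcinoma cells. The 6 WT endothelial cells formed cluster 12 with 2 WT carcinoma cells.

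**Figure D4:**
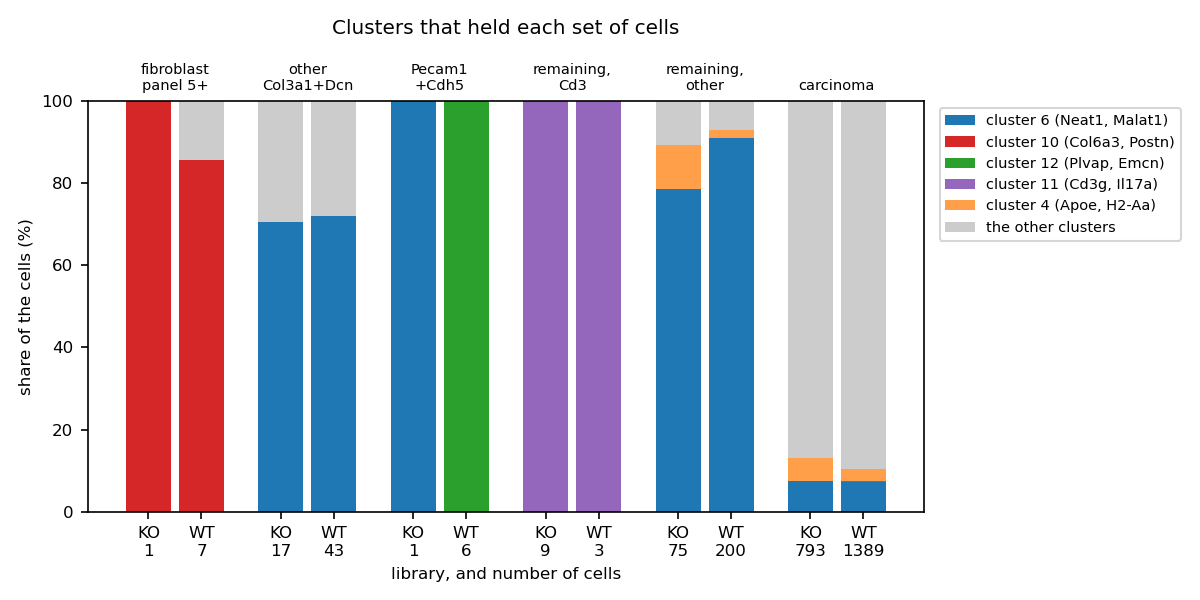
Percentage of the cells of each set (bars, Cysltr1 KO left of WT, with the number of cells) that fell in each cluster of members and carcinoma cells. Cluster 6 holds 70.2% of Cysltr1 KO and 89.7% of WT remaining cells when those with Cd3 transcripts, which have a bar of their own, are counted in. The panel cells, the WT endothelial cells and the cells with Cd3 transcripts all fall in other clusters.

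Within cluster 6 the remaining cells had medians of 2824 and 2760 UMIs in the Cysltr1 KO and WT libraries, against 7625.5 and 5183 UMIs in the carcinoma cells of that cluster. Malat1 and Neat1 had medians of 6.82% and 6.65% in remaining cells, against 2.25% and 3.14% in carcinoma cells. Mitochondrial UMIs had medians of 3.19% and 3.02%, against 6.36% and 6.99%. The carcinoma cells of this cluster were thus shallower and higher in nuclear RNA than carcinoma cells at large, and the remaining cells were so to a larger extent.

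A group of 12 remaining cells, 9 in the Cysltr1 KO library and 3 in the WT library, held 2 or more UMIs of Cd3d, Cd3e and Cd3g, the chains of the T cell receptor complex, and made up cluster 11. They were 10.7% [5.02 to 19.4] of remaining cells in the Cysltr1 KO library and 1.48% [0.306 to 4.26] in the WT library. The 5 T cell markers summed to 83 UMIs, 3149 [2508 to 3904] CPM, in the Cysltr1 KO cells and to 16 UMIs, 2277 [1302 to 3698] CPM, in the WT cells. Trac and Cd2, the markers by which the cells were not chosen, gave 11 of the 83 and 2 of the 16 UMIs, so the sums are largely the choice. The cells are called T cell-like here although no Ptprc UMI was counted in them, and their median depth was 2419 UMIs in the Cysltr1 KO library and 2335 UMIs in the WT library. Il17a, which encodes the cytokine interleukin 17A, had 26 UMIs in 3 of the Cysltr1 KO cells and 95 UMIs in 2 of the WT cells, 89 of them in 1 cell. Trdc, a gamma-delta T cell receptor gene, had 1 or 2 UMIs in 3 of the Cysltr1 KO cells and none in the WT cells. Icos, a costimulatory receptor of activated T cells, was found in 8 of 9 Cysltr1 KO cells and 2 of 3 WT cells.

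A further 8 remaining cells of the Cysltr1 KO library (9.52%) and 4 of the WT library (1.97%) fell in cluster 4, whose leading genes were Apoe, H2-Aa, Tmem37 and Lyz2, which macrophages express, and whose median mitochondrial share was 0.0987%. That cluster was 87.8% carcinoma cells by keratin, so it was given no name. Lyz2 (lysozyme) had a UMI in 41.3% [30.1 to 53.3] of Cysltr1 KO and 42.0% [35.1 to 49.2] of WT remaining cells without Cd3 transcripts after thinning to 2000 UMIs. The share was 7.44% and 11.7% in carcinoma cells and 81.9% and 88.4% in leukocytes after the same thinning, and unthinned it was 64.0% and 59.0% in remaining cells, 45.5% and 54.4% in carcinoma cells and 89.0% and 93.2% in leukocytes. The 6 macrophage markers summed to 360 and 401 CPM in these remaining cells, against 56.2 and 74.7 CPM in carcinoma cells and 10291 and 12682 CPM in leukocytes. The 5 neutrophil markers summed to 113 and 158 CPM, against 25.9 and 26.5 CPM in carcinoma cells and 4561 and 5266 CPM in leukocytes. Leukocyte transcripts thus lay above carcinoma cells and far below leukocytes in both libraries, and free RNA in droplets was not tested as their source.

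Xist had 44 UMIs in 4 of 75 Cysltr1 KO and 47 UMIs in 22 of 200 WT remaining cells without Cd3 transcripts. After thinning, 4% [0.833 to 11.2] of Cysltr1 KO and 8.50% [5.03 to 13.3] of WT cells had a Xist UMI, against 0.883% and 1.58% of carcinoma cells and 40.0% and 44.2% of leukocytes. Most remaining cells therefore lacked the transcript at a depth at which 40.0% of Cysltr1 KO and 44.2% of WT leukocytes showed it.

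Set against carcinoma cells, 799 of 3475 genes (23%) were higher and 149 (4.29%) lower in remaining cells in both libraries. With median-of-ratios factors 346 were higher and 880 lower, and the median log2 ratio of the same genes moved to −0.47, against 0.13 on CPM. In single libraries 596 of 3217 genes (18.5%) were higher and 205 (6.37%) lower for Cysltr1 KO, and 1121 of 3440 (32.6%) were higher and 655 (19%) lower for WT. Nuclear long noncoding RNAs were among the highest. Malat1 had 38923 and 53176 CPM in the Cysltr1 KO and WT remaining cells, against 2877 and 3294 CPM in carcinoma cells. Neat1 had 1689 and 3754 CPM against 110 and 200 CPM, and Kcnq1ot1, which silences imprinted genes in its cluster, 760 and 1336 CPM against 88.3 and 102 CPM. Mir100hg, the host transcript of a microRNA cluster, had 179 and 257 CPM against 21.8 and 21.7 CPM. These 4 transcripts were higher than in carcinoma cells of the same library in both libraries.

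The other genes with the highest ratios were Nfat5, the osmotic stress factor, with 769 and 1030 CPM against 104 and 112 CPM, Bcl7a, Csmd3, Malt1 and Ogt, with mean log2 ratios from 3.03 (Nfat5) to 3.46 (Bcl7a). Il17a also ranked here and was left at a log2 ratio of −0.04 without the cells with Cd3 transcripts. The lowest ratios were those of Ccnb2, Ube2c and Pttg1, genes of mitosis, of Gchfr, Fdps, Bola3, S100a1 and Eno3, and of the contractile genes Acta2 and Myl9. Acta2 had 215 and 222 CPM in remaining cells against 801 and 1366 CPM in carcinoma cells. Fdps, an enzyme of the mevalonate pathway, had 174 and 91.1 CPM against 437 and 437 CPM.

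By list, at the 1.5-fold limit that 32% of the 3475 genes passed upwards and 18.1% downwards, 6 of 11 TGF-beta pathway genes were higher (Tgfb2, Skil, Tgfbr3, Ltbp2, Ltbp1 and Smad7) and none lower, with a median log2 ratio of 1.13, or 0.52 with median-of-ratios factors. Ltbp1, which holds latent TGF-beta in the matrix, had 190 and 352 CPM against 85.1 and 109 CPM. Of the genes of Notch, VEGF and angiopoietin signalling 5 of 6 were higher and 1 lower (Vegfb), with a median of 1.04, or 0.43 with median-of-ratios factors. Vegfa, among those higher, had 350 and 412 CPM against 203 and 178 CPM. Nrp2, Notch2, Nrp1 and Angpt1 were higher in fibroblast-like cells too. Of the collagens 4 of 9 were higher, with a median of 0.73, or 0.12 with median-of-ratios factors. Of 24 cell cycle genes 2 were higher (Mki67 and Top2a) and 11 lower, of 24 hypoxia and glycolysis genes 3 were higher and 10 lower, and of 17 oxidative stress genes 1 was higher and 10 lower. Mki67, whose product coats mitotic chromosomes, had 160 and 277 CPM against 86.7 and 104 CPM, while Ube2c had 57.9 and 43.5 CPM against 227 and 274 CPM.

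Carcinoma cells nearer in depth or cluster gave far fewer differences, in comparisons added after the data were seen. Against the 42 Cysltr1 KO and 68 WT carcinoma cells under 5000 UMIs, 4 genes were higher and 6 lower in both libraries. In single libraries the counts were 49 higher (6.21%) and 23 lower (2.92%) of 789 genes for Cysltr1 KO, and 21 higher (1.04%) and 11 lower (0.543%) of 2026 genes for WT. Within cluster 6, remaining cells differed from carcinoma cells at 13 genes upwards and 41 downwards in both libraries. In single libraries these were 47 (3.29%) and 122 (8.54%) of 1428 genes for Cysltr1 KO and 19 (0.752%) and 52 (2.06%) of 2528 genes for WT. Smaller sums widen the Poisson intervals, so that fewer genes can be called.

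Between genotypes, fibroblast-like cells could be compared at 713 genes, of which 10 (1.4%) were higher and 13 (1.82%) lower in the Cysltr1 KO library at 2-fold. With median-of-ratios factors 5 were higher and 20 lower. The sums behind them were 143638 UMIs of 18 cells for Cysltr1 KO and 317717 UMIs of 50 cells for WT. Ly6a, which encodes the surface antigen Sca-1, was highest, with 144 UMIs and 1003 [845 to 1180] CPM in Cysltr1 KO cells against 25 UMIs and 78.7 [50.9 to 116] CPM in WT cells, a log2 ratio of 3.65. It was found in 9 of 18 Cysltr1 KO and 11 of 50 WT cells, and the log2 ratio was 3.68 without panel cells. Carcinoma cells of the same libraries had 582 and 150 CPM of Ly6a and leukocytes 405 and 194 CPM, so the direction was shared by these classes of the same 2 libraries.

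Other higher genes were Ero1l, an oxidase of the endoplasmic reticulum, with 592 against 161 CPM, the small heat shock gene Hspb1 with 780 against 239 CPM, Bst2, an interferon-induced gene, with 773 against 261 CPM, and Sdc4, Gja1, Plec, Htra1 and Ptx3, with log2 ratios from 1.02 (Ptx3) to 1.18 (Sdc4). Ptx3, which encodes a secreted pattern recognition protein, took 89.1% of its Cysltr1 KO UMIs from 1 cell, and its log2 ratio was −0.75 without the cell with most UMIs in each library. Carcinoma cells had 878 CPM of Hspb1 in the Cysltr1 KO library against 1108 CPM in the WT library. Single cells thus weighed on this comparison.

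Some of the 10 lowest genes rested on panel cells or on 1 cell and others did not. Serpinb2 had 0 against 173 UMIs, all of them in 1 WT cell. Tnc (tenascin C) had 1 against 132 UMIs in 10 WT cells, and Postn 3 against 109 UMIs, found in the 7 WT panel cells. Rarres2 had 6 against 191 UMIs. Ccn2, a target of TGF-beta and mechanical signals, had 69.6 [33.4 to 128] CPM in Cysltr1 KO cells against 315 [256 to 383] CPM in WT cells, in 8 and 20 cells. Gng11, Mgp, Neat1, Cthrc1 and Igfbp7 had log2 ratios from −1.37 (Gng11) to −1.07 (Igfbp7). Without panel cells the log2 ratios were −1.61 for Ccn2, −1.40 for Gng11, −1.92 for Mgp, −0.88 for Neat1, −0.90 for Cthrc1 and −1.23 for Igfbp7, so these 6 kept their sign. With panel cells left out, 4 genes were called lower.

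At 1.5-fold, 5.89% of the 713 genes were higher and 4.07% lower. Of 10 collagens 1 was higher (Col5a3) and 3 lower (Col5a1, Col6a2 and Col1a1), and without panel cells, where 5.61% of 642 genes were higher and 2.8% lower, 1 was higher and 1 lower of 10. Of 7 myofibroblast genes 3 were lower (Postn, Tnc and Cthrc1) and none higher, and without panel cells 3 were measured and none was called. Of 12 hypoxia and glycolysis genes 3 were higher (Tpi1, Aldoa and Ero1l). None of 8 genes of the MHC class I list was called in either direction. Panel cells were 1 of 18 in the Cysltr1 KO library and 7 of 50 in the WT library. Without them Tnc had a log2 ratio of −1.16 and Cthrc1 one of −0.90, and Postn had 0 UMIs in both libraries.

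Remaining cells could be compared between genotypes at 2208 genes, of which 35 (1.59%) were higher and 82 (3.71%) lower in the Cysltr1 KO library. The median log2 ratio was −0.22, and with median-of-ratios factors it was −0.14 with 56 genes higher and 63 lower. Ly6a again led, with 364 [304 to 431] CPM in Cysltr1 KO cells against 84.3 [64.6 to 108] CPM in WT cells, a log2 ratio of 2.10. Within cluster 6 alone its log2 ratio was 2.07. Socs3, a feedback inhibitor of cytokine signalling, had 231 against 55.7 CPM, and S100a4, a calcium-binding protein of motile cells, 614 against 173 CPM. Cd9, a tetraspanin, had 526 against 204 CPM, and Spp1, the secreted phosphoprotein osteopontin, 3307 against 1269 CPM.

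Bst2, Cst3, Lgals7, Dap and Selenow were also higher, with log2 ratios from 1.23 (Selenow) to 1.42 (Bst2). Restricted to remaining cells of cluster 6, added after the data were seen, the log2 ratios were 1.46 for Cd9, 1.17 for Socs3, 0.88 for Spp1, 0.83 for S100a4, −0.18 for Lgals7 and −0.15 for Selenow. Leukocytes had 8051 against 8968 CPM of Spp1 and 3077 against 2205 CPM of Cst3. The share of remaining cells in cluster 6 was 70.2% in the Cysltr1 KO library and 89.7% in the WT library, and its part in these differences was measured only by that restriction: it left 4 genes higher and 13 lower.

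The lowest ratio was that of Slpi, a secreted protease inhibitor, with 121 CPM in Cysltr1 KO cells against 1083 CPM in WT cells. A single WT cell held 98.7% of the WT UMIs, and the log2 ratio was 2.62 without the cell with most UMIs in each library and 1.78 within cluster 6, against −3.15 in all cells. Hspa1b, an inducible heat shock gene, had 88.2 against 315 CPM and Ppp1r15a, a stress-induced phosphatase subunit, 171 against 480 CPM. Efnb2, Dpp8, Phactr4, Amotl2, Nav3, Phldb2 and Agbl3 had log2 ratios from −1.76 (Efnb2) to −1.49 (Agbl3). Within cluster 6 the log2 ratios of Hspa1b, Ppp1r15a and Efnb2 were −1.29, −1.23 and −1.43, while carcinoma cells had −0.25, −0.06 and −0.17 for the same genes. Aside from Slpi, the named lower genes kept their sign within cluster 6 and without the cell with most UMIs.

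**Figure D5:**
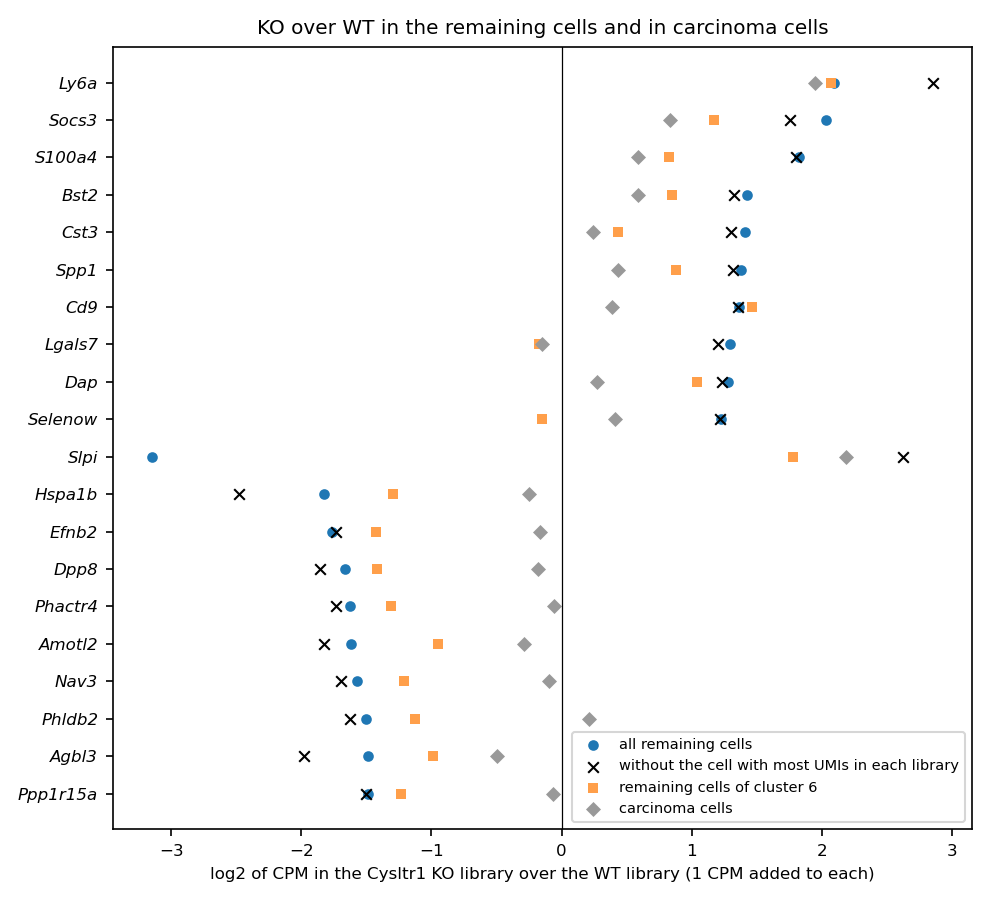
Log2 ratio of CPM in the Cysltr1 KO library over the WT library (x axis, 1 CPM added) for the named genes (rows) in all remaining cells, without the cell with most UMIs of the gene in each library, in remaining cells of cluster 6 and in carcinoma cells. Ly6a lies well above 0 in all of them, Slpi changes sign, and the lower genes other than Slpi lie well below 0 in remaining cells.

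MHC class I molecules present peptides to CD8 T cells. The MHC class I list, which also holds genes of peptide processing, was higher in Cysltr1 KO remaining cells at 7 of 10 measured genes. Over all genes 9.24% were higher and 14.6% lower at 1.5-fold. Among the 7 were Psme1 and Psme2, which encode proteasome activator subunits and not class I molecules. H2-K1 had 2163 [2014 to 2320] CPM against 1192 [1114 to 1273] CPM and B2m 2067 against 1238 CPM. The list's median log2 ratio was 0.72, against −0.22 for all 2208 genes. Within cluster 6, where 1.75% of 1489 genes were higher and 2.89% lower, none of 7 was called and the median was 0.40, so that the call was lost with that restriction. In carcinoma cells H2-K1 had 2156 against 1931 CPM.

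Hypoxia and glycolysis genes were higher at 8 of 21, with a median of 0.53, among them Ldha with 1116 [1010 to 1230] against 503 [453 to 557] CPM, Aldoa with 1328 against 712 CPM and Slc2a1, a glucose transporter, with 276 against 159 CPM. Within cluster 6, 1 of 15 was higher and the median was 0.18. Chemokine and cytokine genes were higher at 3 of 5, namely Cxcl5, Cxcl1 and Spp1, and the first of these had 350 against 174 CPM. In cluster 6 alone 2 genes of that list were measured and neither was called, with a median of 0.19. Gbp2 and Psmb8 were higher among 7 interferon gamma induced genes, and in cluster 6 alone 1 of 4 was higher.

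Immediate early and heat shock genes were lower at 7 of 20, with a median of −0.44, and none was higher. Fos had 278 [227 to 338] CPM in Cysltr1 KO cells against 529 [477 to 584] CPM in WT cells, Fosb 446 against 864 CPM and Hsph1 143 against 330 CPM. Within cluster 6, 6 of 18 were lower, with a median of −0.34 against −0.07 for all 1489 genes compared there. In carcinoma cells Fos had 447 against 487 CPM. Tgfb2 and Ltbp1 were lower among 8 TGF-beta pathway genes, the first with 60.6 against 130 CPM, and in cluster 6 alone 1 of 7 was lower. Of 9 cell cycle genes 2 were lower (Cenpf and Mki67) and none higher, and in cluster 6 alone none of 7 was called. Over all 2208 genes, 14.6% were lower and 9.24% higher at the same 1.5-fold limit.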

How the data were processed

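Single-cell UMI counts of the 2 tumor libraries were used as the authors deposited them, as matrices made with Cell Ranger 6.1.0 per the file headers (6.0.0 on mm10 per the submitters' processing notes). The labels name both a 5' kit and a 3' v3 kit, and the one used is not resolved here. The members and gene lists were chosen with earlier results of these data known. UMIs were summed over the cells of a set in each library and given as CPM, with log2 ratios after 1 CPM was added and exact Poisson 95% intervals. Shares have exact Clopper-Pearson intervals. Intervals and the floor of 3 counts cover counting error only. Calls needed a 2-fold ratio, or 1.5-fold for lists, and intervals that did not overlap.

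The named genes are those of the rule and Cysltr1, then the 10 highest and 10 lowest called log2 ratios of each comparison without ribosomal, mitochondrial, haemoglobin, antigen receptor, Y-linked, Xist or provisional genes, members of the lists, and markers of other cell types. Some genes and lists that met this rule are not reported here. The 4 panel genes and the leading genes of single-library comparisons were named after their values were seen. The classes for the 20% limit were fibroblast-like, remaining, carcinoma and leukocyte cells. Members and carcinoma cells were clustered on 2000 variable genes and 30 principal components with 15 neighbours (Leiden, resolution 1). Simulated counts were used to check the calls. Positions are those of GENCODE on mm10, matched by gene ID for 32158 of 32285 genes. Tools were Python 3.11.15, numpy 2.4.6, scipy 1.17.1, pandas 2.3.3, scanpy 1.11.5 and igraph 0.11.9.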

Additional observations from a re-analysis of the deposited data

How the results depend on the processing

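No paired analysis was possible because each genotype had 1 library. Direction and call were kept by most single genes. The single genes that changed sign, and the main counts and shares that moved, follow. Other values that moved, among them most list medians, are mostly not given here. For example, the median of fibroblast markers in remaining against carcinoma cells was 0.307 on CPM and −0.306 with median-of-ratios scaling. The cause was not tested unless the setting itself removes cells or genes. For fibroblast-like cells against carcinoma cells, median-of-ratios scaling gave 279 genes higher and 579 lower, no filter on low genes 984 higher, thinning to 2000 UMIs 354 higher, a mitochondrial limit of 5% 109 higher and 48 lower, and panel cells alone 99 higher and 45 lower. Without panel cells the log2 ratios were −0.185 for Rarres2, −0.843 for Gpx3, −0.752 for Bgn, −0.908 for Col5a2, −0.582 for Serpinf1, −0.19 for Cxcl14, −1.06 for Postn and −1 for Mfap5. For endothelial cells, median-of-ratios scaling gave 7 higher and 269 lower, thinning 18 higher, and the WT library alone 559 higher and 348 lower. Thinning gave log2 ratios of −3.24 for Ikzf5, −3.1 for Atg16l2, −0.338 for Arhgap18, −0.983 for Rab10os and −0.29 for Bcr. A minimum of 4000 UMIs left no Cysltr1 KO endothelial cell, so that comparison could not be run, nor could one between genotypes.

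For remaining against carcinoma cells, median-of-ratios scaling gave 346 higher and 880 lower, no filter 1920 higher, thinning 351 lower, a mitochondrial limit of 5% 67 lower, and a minimum of 4000 UMIs 319 higher and 29 lower. Carcinoma cells under 5000 UMIs gave 4 higher and 6 lower, and those of cluster 6 gave 13 higher and 41 lower. Il17a had a log2 ratio of −0.0382 with a minimum of 4000 UMIs and −0.0381 without cells with Cd3 transcripts. Between genotypes, fibroblast-like cells had 5 genes higher and 20 lower with median-of-ratios scaling, 83 and 56 with no filter, 1 and 0 after thinning, and 4 lower without panel cells. Ptx3 had −0.806 without panel cells and −0.754 without the cell with most UMIs in each library. Remaining cells had 56 higher with median-of-ratios scaling, 154 higher and 187 lower with no filter, 12 and 28 after thinning, 46 lower with a minimum of 4000 UMIs, and 4 higher and 13 lower in cluster 6. Lgals7, Selenow and Slpi had −0.175, −0.147 and 1.78 in cluster 6, and Slpi had 2.62 without the cell with most UMIs. The settings of single cells, clusters, panel cells, cells with Cd3 transcripts and other carcinoma cells were chosen after seeing the data.

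The shares followed the limits. All members were 2.16% in the Cysltr1 KO library and 3.66% in the WT library at a mitochondrial limit of 5%, 1.44% and 2.02% at a minimum of 4000 UMIs, and 15% and 18.6% when cells were thinned to 2000 UMIs before the rule. Fibroblast-like cells were 0.247% and 0.484% at a mitochondrial limit of 5% and 0.253% and 0.454% at a Col3a1 and Dcn limit of 10, and 1.33% of WT cells at a limit of 3. The Cysltr1 KO endothelial share was 0% at a minimum of 4000 UMIs and at a Pecam1 and Cdh5 limit of 4. Remaining cells were 1.88% and 3.06% at a mitochondrial limit of 5%, 0.959% and 1.10% at a minimum of 4000 UMIs, and 14.3% and 17.2% after thinning. At this depth the 18 Cysltr1 KO fibroblast-like cells gave 143638 UMIs in all, and 713 genes could be compared between genotypes there.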
